A study of Mus musculus with 4 samples.

Results

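Fibroblasts of the healthy mouse cheek lining, the buccal mucosa, were compared by their distance from the epithelium in Xenium in situ data, in which single transcripts of a chosen gene panel are decoded in their place in a tissue section. Near fibroblasts had their centre within 50 µm of an epithelial anchor cell and far fibroblasts lay over 100 µm from any such cell. In 6 sections of the buccal slide there were 2833 near and 1145 far fibroblasts, 3978 cells of the 67803 on that slide and of the 515791 on the 4 slides of the series. The cells were chosen by measured transcripts and by distance. A cell counted as a fibroblast if it held at least 3 transcripts of Pdgfra, Col1a1 and Lum together, none of Krt5 or Itgb4, and at least 10 transcripts in all. An anchor cell held at least 4 transcripts of Itgb4 and Col17a1 together, which encode parts of the hemidesmosome, the plaque that fixes basal keratinocytes to the basement membrane. A further 1343 fibroblasts lay between the zones and entered the distance profile only.

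The slide carried 5 µm sections of formalin-fixed, paraffin-embedded buccal mucosa of male and female mice, with Control as genotype and Vehicle as treatment. In the study, Control animals carried TRE-Pitx1 and Krt5-rtTA transgenes and ate normal chow. PITX1+ animals were littermates on doxycycline chow, which induces Pitx1 in keratinocytes through rtTA under the Krt5 promoter. Sections of unwounded dorsal skin on a male and a female slide, Control and PITX1+ together because the labels do not tell them apart, served as the other tissue. The wounded skin slide was not used. The labels do not say which animal or sex a section came from, so all p-values measure the spread between sections, which may share an animal. Cells were never treated as replicates.

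Fibroblasts make and remodel the collagenous matrix of connective tissue. In skin and oral mucosa, those under the epithelium, in the papillary layer or lamina propria, exchange signals with basal keratinocytes through secreted Wnt, BMP, IGF and heparin-binding ligands, while deeper fibroblasts lie among vessels, nerves, muscle and glands. The cheek has skeletal muscle close below its mucosa. The question was which panel genes differed in fibroblasts between these positions within the same section.

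The buccal slide held 8797668 transcripts of the 328 panel genes at a quality score of at least 20. Near fibroblasts gave 10131 to 117754 transcripts per section and far fibroblasts 1208 to 78034. Levels are given below as CPM, the transcripts of a gene scaled to 1000000 transcripts of all fibroblasts of that zone and section. The shallowest zone was the far zone of section 1, with 12 fibroblasts, in which 1 transcript was worth 828 CPM. CPM values of different genes were not set against each other, because probes differ in efficiency. Of the anchor cells in the sections used, 76.1% to 96.9% also held Krt5, the basal keratin. Section 1 was lowest, with Krt8 or Krt18, keratins of simple and glandular epithelium, in 24.6% of its anchor cells. Pecam1 or Cdh5, endothelial genes, were in 3.1% to 11.1% of anchor cells, and the Schwann cell genes Scn7a or Ptprz1 in 8.1% to 29.3%. With Krt5 required of anchor cells, sections 1, 2, 3, 4, 6 and 7 held 64, 156, 475, 440, 283 and 317 near fibroblasts. Without it they held 140, 259, 965, 707, 362 and 400. Far fibroblasts rose from 12, 55, 582, 137, 165 and 194 to 68, 227, 1275, 406, 326 and 323. A further section was not used because it held 43 near fibroblasts, fewer than the 100 required. None of its 30 anchor cells held Krt5, and 60.0% held the endothelial genes Pecam1 or Cdh5. Of the fibroblasts, 1356 held exactly 3 transcripts of the selecting genes, and 2313 cells held 2 and were left out. Cells holding 3 or more but left out for Krt5 or Itgb4 numbered 1648 within 50 µm and 84 beyond 100 µm. Within 5 µm of the 50 µm limit lay 197 fibroblasts on the near side and 196 beyond it, and within 5 µm of the 100 µm limit lay 79 inside and 83 beyond it.

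The genes that selected the cells are described without a test. Pdgfra, the receptor that marks fibroblasts, averaged 17464 ± 1487 CPM near and 18474 ± 2932 CPM far (± SD, n = 6 sections). Lum, a small proteoglycan of collagen fibrils, averaged 14399 ± 2039 CPM near and 16362 ± 2249 CPM far, and Col1a1, the main collagen chain, 30720.4 ± 9807 CPM near and 20621 ± 2879 CPM far. Of the 7 other fibroblast markers, all tested, Mmp2 and Cdh11 were higher near (0.50 and 2.24 on the log2 scale) and Abca8a was lower near (-0.41), while Col5a1, Col6a1, Col14a1 and Tnxb did not pass, with log2 differences of -0.16, -0.08, -0.21 and -0.16. Col17a1, a keratinocyte gene that was allowed up to 3 transcripts, was at 137, 183 and 234 CPM near and 0, 26.2 and 73.4 CPM far (lowest, median and highest section).

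Near and far fibroblasts differed in many panel genes. Crabp1, Ptn, Postn, Wnt5a, Cdh11 and Thbs1 were higher near the epithelium, by 3.76-fold for Thbs1 to 13.4-fold for Crabp1, and Flt1, Gpx3, Rtn4, Des and Cxcl12 were lower there. Without fibroblasts holding Des, where fewer cells and genes remained, 5 genes were called and none of them was lower near. In the paired edgeR quasi-likelihood test, 65 of 160 genes passed an adjusted p of 0.05 (40.6% of the genes tested), 30 of them higher near (18.8%) and 35 lower near (21.9%). In 19 of the 160 (11.9%) the levels of the zones did not overlap between any sections. Of the 30 genes higher near, 24 exceeded the pooled level of all other cells of the near zone in every section. Of the 35 lower near, 5 exceeded the pooled level of all other cells of the far zone in every section. A pooled level mixes cell types, and Ctss, a gene of the macrophage list, was among the 24. Which cells the transcripts came from was not tested by these counts, and the share over all 160 genes is not given here. With RLE size factors in place of TMM the split was 45 higher and 24 lower, and with DESeq2 it was 43 and 28. The median log2 difference over all tested genes was 0.01 with TMM and moved to 0.16 with RLE and 0.18 with DESeq2, so small differences are relative to that choice.

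**Figure D1:**
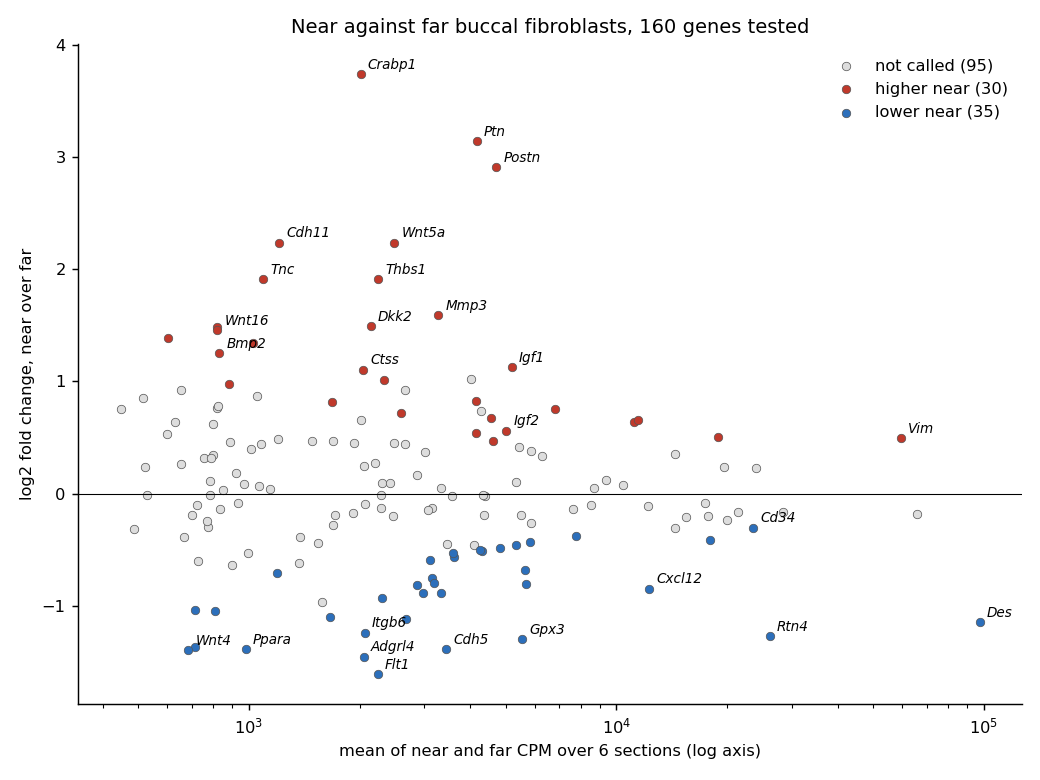
Each point is 1 of the 160 genes tested, at its mean CPM over both zones and 6 sections (horizontal, log axis) and its log2 fold change of near over far buccal fibroblasts (vertical). Red points are the 30 genes called higher near and blue points the 35 called lower near. Crabp1, Ptn and Postn stand highest, at 3.74, 3.14 and 2.91, and no gene called lower near falls below -1.61, the value of Flt1.

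Desmin transcripts moved with position as well. Des, the intermediate filament gene of muscle, was at 27934, 67269 and 84557 CPM in near and 100621, 134325 and 146149.9 CPM in far fibroblasts (lowest, median and highest section), with no overlap, and its log2 difference was -1.15, SE 0.16, adjusted p = 8.5e-05. All other cells of the far zone held Des at a mean of 186852 CPM, and anchor cells at 3066 CPM. Among far fibroblasts, 91.5% of cells (median of sections) held a transcript of the mural and smooth muscle list, which includes Des, against 70.7% of near fibroblasts. When fibroblasts holding any Des transcript were left out, 4 sections with 83 to 361 near and 11 to 60 far fibroblasts remained, 88 genes were tested, and 5 passed, all higher near: Crabp1, Ptn, Postn, Wnt5a and Igf2. Of the 65 genes, 39 could still be tested there, of which 5 were called and 6 had the opposite sign. Among the lost calls, the log2 difference was 1.94 (SE 0.73) for Cdh11 and 1.64 (SE 0.55) for Dkk2, against 2.24 and 1.49 with all fibroblasts, but 0.35 (SE 0.41) for Igf1 and 0.26 (SE 0.59) for Ctss, against 1.13 and 1.11. With the far zone beyond 200 µm, 3 sections remained, and of the 63 genes that could still be tested 10 were called and 3 had the opposite sign. The part of muscle transcripts, and of the smaller number of cells, in the other 60 calls was not tested.

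Among secreted signals, the pleiotrophin gene Ptn, a heparin-binding growth factor, showed a clear difference. Near fibroblasts held it at 1579, 6219, 9308, 8237, 10932 and 8997 CPM in sections 1, 2, 3, 4, 6 and 7, and far fibroblasts at 0, 1035, 1243, 577, 1101 and 826 CPM. Every near value lay above every far value, section 1 being lowest in both zones, and Ptn was 8.82-fold higher near (log2 3.14, SE 0.20, adjusted p = 3.4e-08). Per cell, that was 0.938 transcripts near against 0.124 far. The anchor cells held Ptn at a mean of 5043 CPM, below the near fibroblasts' mean of 7545 CPM. Of the 18 PDGF, FGF, EGF and heparin-binding genes, 12 were tested, 1 was higher near (Ptn) and 3 were lower near: Hdgf, a heparin-binding nuclear factor (-0.81), Pdgfb, the ligand of mural cells (-1.05), and Egfr, the EGF receptor (-0.46), which lost its call under 14 of 28 alternatives. These counts, and those of the lists that follow, are to be read against the 160 genes tested, of which 40.6% were called, 18.8% higher and 21.9% lower near, with a median of 0.01. The median log2 difference of the list was -0.11. The other 8 did not pass, among them the PDGF receptor gene Pdgfrb at 0.33 (SE 0.14) and the ligand Pdgfa at -0.44 (SE 0.22).

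In the Wnt pathway 6 of 15 genes were tested, with 3 higher near, 2 lower near (40.6% of all genes tested were called) and a median log2 difference of 1.05. Wnt5a, a ligand known mainly for non-canonical signalling, was at 2369, 3429.8, 4789.6, 4331, 5549 and 4381 CPM near and 0, 776, 666, 839, 1909 and 771 CPM far in sections 1, 2, 3, 4, 6 and 7. The zones did not overlap, and Wnt5a was 4.72-fold higher near (log2 2.24, SE 0.25, adjusted p = 1.1e-05). Dkk2, a secreted Wnt modulator, was higher near in 5 of 6 sections, at 1086, 3154 and 4565 CPM near and 259, 1089 and 2483 CPM far (log2 1.49, SE 0.31, adjusted p = 0.0018). Section 1, with 12 far fibroblasts, went the other way for Dkk2. Wnt16 passed as higher near (log2 1.46, SE 0.34, adjusted p = 0.0036), but its level in anchor cells, 2754 CPM, was above that in near fibroblasts, 1281 CPM, and without fibroblasts holding keratinocyte markers it did not pass (log2 1.06, SE 0.42, adjusted p = 0.073). Wnt4 was lower near, at 263, 375 and 503 CPM against 682, 856 and 1656 CPM far (log2 -1.40, SE 0.30, adjusted p = 0.0023), while anchor cells averaged 13309.8 CPM. Wnt4 passed the filter on low counts mainly through its far values, so its test was favoured by that filter. The co-receptor gene Lrp6 was lower near (-0.43), and lost its call under 14 of 28 alternatives, RLE size factors and DESeq2 among them. The receptor gene Fzd1 did not pass (0.64, SE 0.35).

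Several Wnt genes did not pass the filter on low counts, and their values were looked up after the other results were known. Wif1, a secreted Wnt inhibitor, had 374 transcripts in near and 4 in far fibroblasts, with near sections at 395, 698 and 2674 CPM (lowest, median and highest). Anchor cells held Wif1 at a mean of 321 CPM. Lgr5, the R-spondin receptor gene, had 162 near and 11 far, with near sections at 137, 817 and 2172 CPM and anchor cells at 19.7 CPM. The ligand gene Wnt6 had 116 near and 7 far, with near sections at 0, 311 and 769 CPM and anchor cells at 395 CPM. The ligand gene Wnt10a had 67 near and 0 far, with near sections at 0, 207 and 289 CPM and anchor cells at 865 CPM. Anchor cells held Wnt10a above every near section and Wnt6 above the median near section, and Wif1 and Lgr5 below it. The other Wnt genes below the filter had 35 near and 7 far transcripts (Fzd3), 24 and 10 (Fzd5), 18 and 13 (Lgr6), 14 and 0 (Ccn4) and 4 and 2 (Wnt7a), where near fibroblasts gave 307871 and far fibroblasts 133963 transcripts in all. These counts are given without a test, since the genes failed the filter. Over the gene lists and the cell type markers, 85 members were kept out by the filter. In 58 of them the anchor cells were above the median near section. Among these, Krt17, a keratin, had 138 transcripts near and 3 far with anchor cells at 58619 CPM, Igfbp2 465 and 19 with anchor cells at 16609.6 CPM, and Fgfr2 101 and 4 with anchor cells at 6398 CPM. In the other 27 they were not, among them the chemokine gene Ccl7 with 168 near and 19 far and the calponin gene Cnn1 with 200 and 7. Pparg, a regulator of fat cells, had 35 near and 38 far. The part of transcripts assigned from neighbouring keratinocytes was not tested for these genes.

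Of 12 BMP and TGF-beta genes 9 were tested, with 3 higher near, 2 lower near (against 40.6% of all called) and a median of -0.14. Bmp4, a ligand gene of dermal fibroblasts, was at 2863, 6376 and 7188 CPM near and 828, 3789 and 4397 CPM far and higher near in 6 of 6 sections (log2 0.67, SE 0.17, adjusted p = 0.0053). Bmp2, a related ligand, was also higher near in all 6 (log2 1.25, SE 0.30, adjusted p = 0.0041), and anchor cells, at 1149 CPM, were close to the near fibroblasts' 1222 CPM. Without fibroblasts holding keratinocyte markers, Bmp2 did not pass (log2 0.94, SE 0.37, adjusted p = 0.068). Id3, a transcriptional target of BMP signalling, had zones that did not overlap, at 4044, 5572 and 6385 CPM near and 1321, 3196 and 3383 CPM far (log2 0.83, SE 0.21, adjusted p = 0.0063). The receptor genes Bmpr1a and Bmpr2 were lower near (-0.51 and -0.51), and neither passed with RLE size factors. Tgfb1 and Tgfb3 did not pass.

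Of 10 IGF genes 9 were tested, 5 were higher near and 1 was lower near (18.8% and 21.9% over all genes), with a median of 0.56. Igf1, the ligand, was at 7897, 5351, 6879, 6704, 8993 and 8442 CPM near and 1656, 3621, 4306, 2936, 2863 and 2643 CPM far in sections 1, 2, 3, 4, 6 and 7. All near values exceeded all far values (log2 1.13, SE 0.19, adjusted p = 3.5e-04), while anchor cells held Igf1 at a mean of 319.7 CPM. Its call was lost with the far zone beyond 200 µm (log2 0.85, adjusted p = 0.25) and without fibroblasts holding Des (log2 0.35, adjusted p = 0.66). Igf2, the second ligand, was higher near without overlap, at 5231, 6294 and 6905 CPM near and 2328, 4011 and 4869.7 CPM far (log2 0.56, SE 0.17, adjusted p = 0.018). The binding protein genes Igfbp6 and Igfbp4 were higher near in 6 and 5 of 6 sections (0.66 and 0.64), and Igfbp3 in 5 of 6 (1.02), with anchor cells at 12763 CPM of Igfbp3 against 3214 CPM in near fibroblasts. Igf2r, which clears IGF2, was lower near (-0.56). The receptor gene Igf1r did not pass (0.05, SE 0.18), nor did Igfbp5 (-0.19) or Igfbp7 (0.23).

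Crabp1, which encodes a cytoplasmic binding protein for retinoic acid, had the largest log2 difference of the 160 genes that passed the filter on low counts. It passed that filter through its near values only, so the rank depends on the filter. Near fibroblasts held it at 2073, 3658, 4433, 3661, 6285 and 2892 CPM in sections 1, 2, 3, 4, 6 and 7, and far fibroblasts at 0, 0, 397, 209.7, 294 and 275 CPM. The lowest near section was above the highest far section, and Crabp1 was 13.4-fold higher near (log2 3.74, SE 0.29, adjusted p = 1.6e-07), or 0.443 against 0.0384 transcripts per cell. Anchor cells averaged 938 CPM and the other cells of the near zone 485 CPM, both below near fibroblasts at 3834 CPM. The retinoid receptor gene Rxra was lower near (-0.82).

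**Figure D2:**
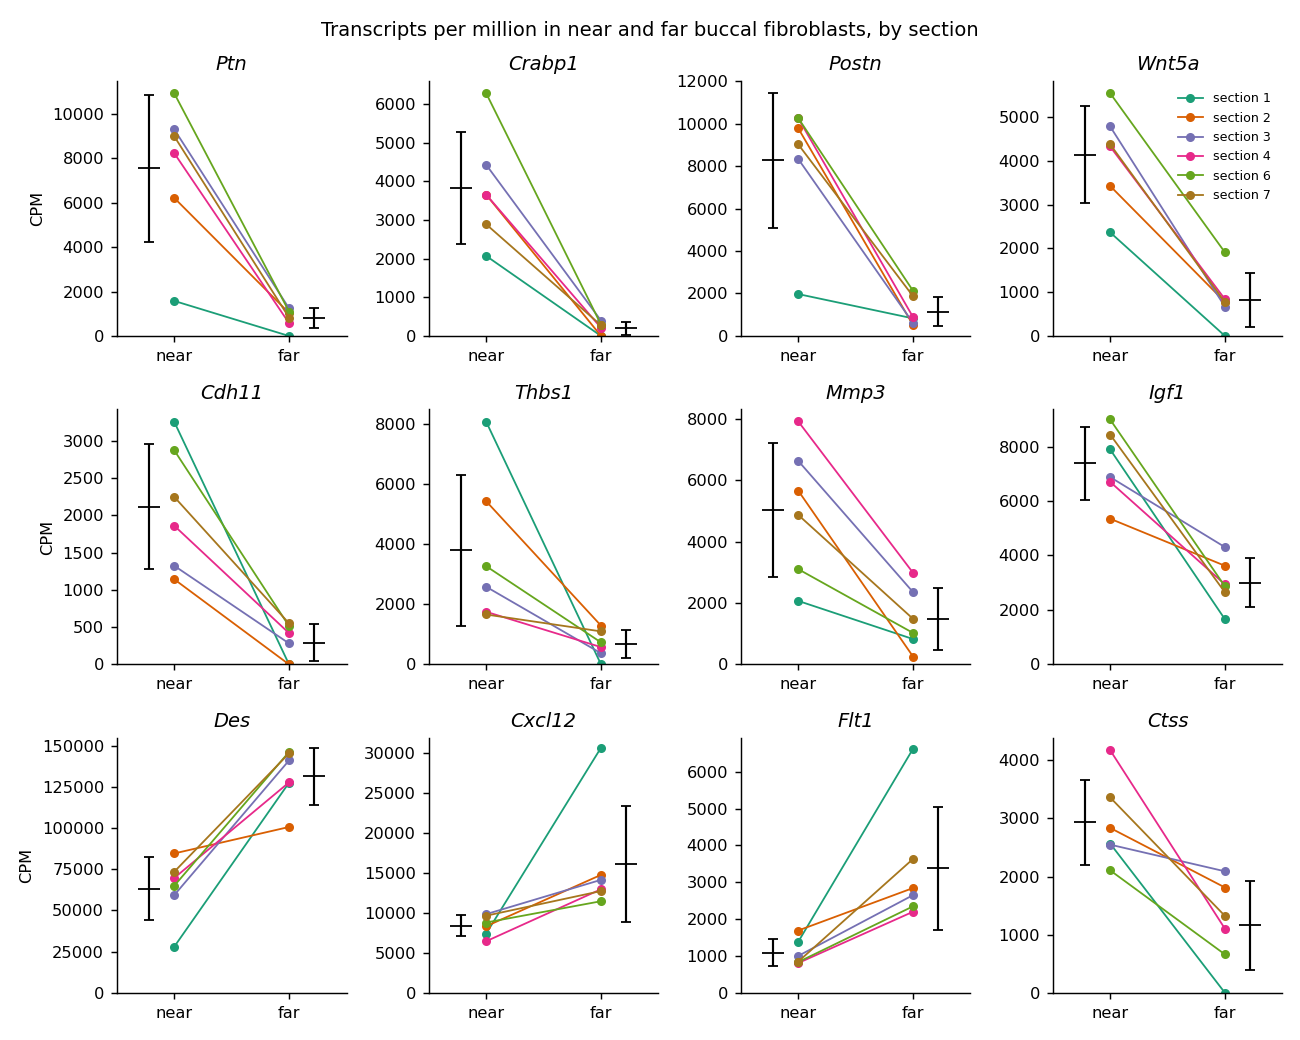
Each panel plots 1 gene in CPM (vertical, from 0) in near and far fibroblasts, with a coloured line for each of 6 buccal sections and black bars for the mean ± SD. Ptn, Crabp1, Wnt5a, Cdh11, Thbs1, Igf1 and Ctss fall from near to far in every section without overlap, while Des, Cxcl12 and Flt1 rise in every section; section 1 has the lowest near value of Postn and the highest far values of Cxcl12 and Flt1.

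In the fibroblast matrix list 11 of 12 genes were tested, 3 were higher near and none was lower near, a smaller share than the 40.6% called over all genes, and the median was 0.24. Postn, the matricellular protein periostin, was at 1974, 9786, 8339, 10258, 10263 and 9026 CPM near and 828, 517, 615, 891, 2129 and 1872 CPM far in sections 1, 2, 3, 4, 6 and 7. The near value of section 1 was within the range of the far values of other sections, and in each section near exceeded far (log2 2.91, SE 0.27, adjusted p = 1.1e-06). Thbs1, which encodes thrombospondin, was at 1665, 2933 and 8094 CPM near and 0, 655 and 1293 CPM far without overlap, with sections 1 and 2 highest near (log2 1.91, SE 0.34, adjusted p = 5.5e-04). Tnc, the tenascin gene, was higher near in 6 of 6 sections (log2 1.91, SE 0.28, adjusted p = 1.2e-04), and anchor cells held it at 3726 CPM against 1713 CPM in near fibroblasts. Thbs2 did not pass (0.73, SE 0.30), nor did Fn1, the fibronectin gene (0.24, SE 0.12). Of the basement membrane genes, 2 of 4 were tested: Lamc1, a laminin chain, was lower near (-0.53, a call lost under 10 of 28 alternatives) and Lama5 did not pass (-0.53, SE 0.26), for a list median of -0.53.

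Of 8 proteases and inhibitors 5 were tested and 3 were higher near (18.8% over all genes), with a median of 0.47. Mmp3, the stromelysin gene, was at 2073, 5274 and 7928 CPM near and 259, 1257 and 2988 CPM far and higher near in 6 of 6 sections (log2 1.59, SE 0.23, adjusted p = 8.7e-05). Mmp2, a gelatinase, did not overlap between zones, at 21119, 22710.3 and 24763 CPM near and 6623, 15771 and 19141 CPM far (log2 0.50, SE 0.15, adjusted p = 0.014). Mmp14, the membrane protease that activates it, was higher near in 5 of 6 (log2 0.47, SE 0.16, adjusted p = 0.03), and lost its call under 14 of 28 alternatives. The inhibitor gene Timp3 did not pass (-0.31, SE 0.15).

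Of 12 adhesion and contractile genes 11 were tested, with 2 higher near, 1 lower near and a median of -0.01. Cdh11, the cadherin of mesenchymal cells, was at 3257, 1143, 1325, 1862, 2875 and 2249 CPM near and 0, 0, 282, 419, 514 and 551 CPM far in sections 1, 2, 3, 4, 6 and 7, with no overlap (log2 2.24, SE 0.30, adjusted p = 6.8e-05). Cdh11 passed the filter on low counts mainly through its near values, so its test was favoured by that filter. Gja1, which encodes the gap junction protein connexin 43, was higher near in 6 of 6 (0.76), with anchor cells at 20691 CPM against 8619 CPM in near fibroblasts. The integrin gene Itgb5 was lower near (-0.48), and Acta2, smooth muscle actin, did not pass (1.02, SE 0.45). Vim, the mesenchymal intermediate filament gene outside the lists, was higher near in 6 of 6 sections, at 52808, 70511 and 81174 CPM near and 38079, 48888 and 56149.7 CPM far (log2 0.50, SE 0.10, adjusted p = 0.0013).

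All 9 adventitial fibroblast genes were tested, with 1 higher near, 3 lower near and a median of -0.11. Gpx3, a secreted glutathione peroxidase, was lower near in 6 of 6 sections, at 1504, 3199 and 5330.2 CPM near and 3229.8, 7209.7 and 13245 CPM far (log2 -1.30, SE 0.18, adjusted p = 8.7e-05), and the other cells of the far zone held it at 7524 CPM, close to the far fibroblasts. Without fibroblasts holding Des, Gpx3 did not pass the same test (log2 -1.07, SE 0.67, adjusted p = 0.37). Abca8a, a lipid transporter, was lower near in 5 of 6 (-0.41), and Cd34, a surface glycoprotein of adventitial fibroblasts and vessels, in 6 of 6 (-0.30). Both lost their call in part of the alternatives, Cd34 in 14 of 28 and Abca8a in 11 of 28. Pi16 did not pass (-0.11, SE 0.24).

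Of 17 chemokine and inflammation genes 9 were tested, 1 was higher near and 2 were lower near, against 40.6% of all genes called (median 0.10). Cxcl12, the chemokine that retains leukocytes through CXCR4, was at 7403, 8323, 9834, 6449, 8792 and 9639 CPM near and 30629, 14744, 14122, 12949.6, 11451 and 12722 CPM far in sections 1, 2, 3, 4, 6 and 7. The zones did not overlap, and Cxcl12 was lower near (log2 -0.85, SE 0.15, adjusted p = 6.5e-04). Its call was lost with the far zone beyond 200 µm (log2 -0.28, adjusted p = 0.72) and without fibroblasts holding Des (log2 -0.99, adjusted p = 0.0999). Ccl8, a monocyte-attracting chemokine, was higher near in 5 of 6 (log2 1.34, SE 0.43, adjusted p = 0.021), and lost its call under 7 of 26 alternatives, leaving out section 4, 6 or 7 among them. Icam1, a leukocyte adhesion receptor, was lower near at an adjusted p near the threshold (log2 -0.70, SE 0.26, adjusted p = 0.045) and lost its call under 23 of 27 alternatives. Il34, a ligand of the macrophage receptor CSF1R, did not pass (0.76, SE 0.33).

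Of 8 immediate early and stress genes 6 were tested and 3 passed: Ccn1, a matricellular protein, was higher near (0.82), the transcription factor genes Jun and Cebpb were lower near (-0.68 and -1.12), and the median was -0.15. Of 10 cell cycle genes 3 were tested and 1, the securin gene Pttg1, was lower near (-0.93; list median -0.14). None of 2 tested ephrin and Eph genes passed (median 0.03), with Ephb3 at 0.45 and Ephb4 at -0.39, nor did the 1 Hedgehog gene tested, the receptor Ptch1, at 0.53 (SE 0.32).

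Transcripts of other cell types were found in fibroblasts of both zones, and 3 groups of them moved with position. The 6 endothelial markers summed to 5416 to 10564 CPM near and 9322 to 31457 CPM far, lower near in 6 of 6 sections. Of them, Flt1, the VEGF receptor, Adgrl4, Cdh5 and Pecam1 were called lower near, with Flt1 at 809, 925 and 1692 CPM near and 2202, 2749 and 6623 CPM far (log2 -1.61, SE 0.23, adjusted p = 8.7e-05), while Vwf and Ackr1 did not pass (0.62 and 0.32). The other cells of the far zone held Flt1 at 5921 CPM, above the far fibroblasts' 3384 CPM. Without fibroblasts holding Des, few far fibroblasts were left. Flt1 then had 63 transcripts near and 0 far, and Adgrl4 48 and 2. The 8 macrophage markers summed to 14115 to 22581 CPM near and 6623 to 14264 CPM far, higher near in 6 of 6 sections, while the share of fibroblasts holding any of them had a median over sections of 38.3% near and 37.6% far. Of them, 2 were called, Cd68 (0.98) and the protease gene Ctss (log2 1.11, SE 0.28, adjusted p = 0.0062). Cd68 lost its call under 8 of 25 alternatives, with log2 values down to 0.38, and Ctss under 3 of 27, with log2 values down to 0.26 without fibroblasts holding Des. The 5 mural and smooth muscle markers summed to 69234 to 93794 CPM near and 108122 to 153857 CPM far. Des made up 83.3% to 96.1% of the sum in each zone of sections 2, 3, 4, 6 and 7 and 95.1% in the far zone of section 1, but 35.4% in its near zone, where Acta2 stood at 25861 CPM and Myh11 at 17767 CPM. Abcc9, a potassium channel subunit of mural cells and muscle, was lower near (-0.89), and Acta2 and Myh11 did not pass (1.02 and 0.92). Cnn1, also on this list but below the filter on low counts, had 200 transcripts near and 7 far. Rtn4, the reticulon gene Nogo, was also lower near without overlap, at 11647, 16062 and 18429.6 CPM near and 29859, 35683 and 45529.8 CPM far (log2 -1.27, SE 0.11, adjusted p = 6.5e-07), with other cells of the far zone at 50868 CPM. Without fibroblasts holding Des, Rtn4 did not pass the same test (log2 -0.61, SE 0.44, adjusted p = 0.44). The fibre-metabolism and fat regulator Ppara was lower near in 5 of 6 sections (-1.39). The keratinocyte markers outside the rule summed to 6259 to 12759 CPM near and 5382 to 11899 CPM far, higher near in 3 of 6 sections. Of the 5 tested, Itgb6 was lower near (-1.24) and 4 did not pass. Below the filter, Krt17 had 138 transcripts near and 3 far, Krt6a 117 and 29, Krt78 108 and 39 and Sprr1a 61 and 22. Krt15 had 46 and 6, Dsg3 39 and 5, Dsc2 36 and 14, Krt16 23 and 5 and Dsc3 21 and 4. Cdh3 had 7 and 0 and Krt1 2 and 0, out of 307871 transcripts near and 133963 far in all. The rule had left out cells with Krt5 or Itgb4, 1648 within 50 µm and 84 beyond 100 µm, which limits these sums by construction. The salivary and simple epithelial markers were at 144 to 237 CPM near (lowest and median section) but at 17866 CPM in the near zone of section 1. Without section 1, 82 of 169 genes were called, 64 of the 65 among them. Whether these transcripts belong to the fibroblasts or to cells touching them was not tested.

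**Figure D3:**
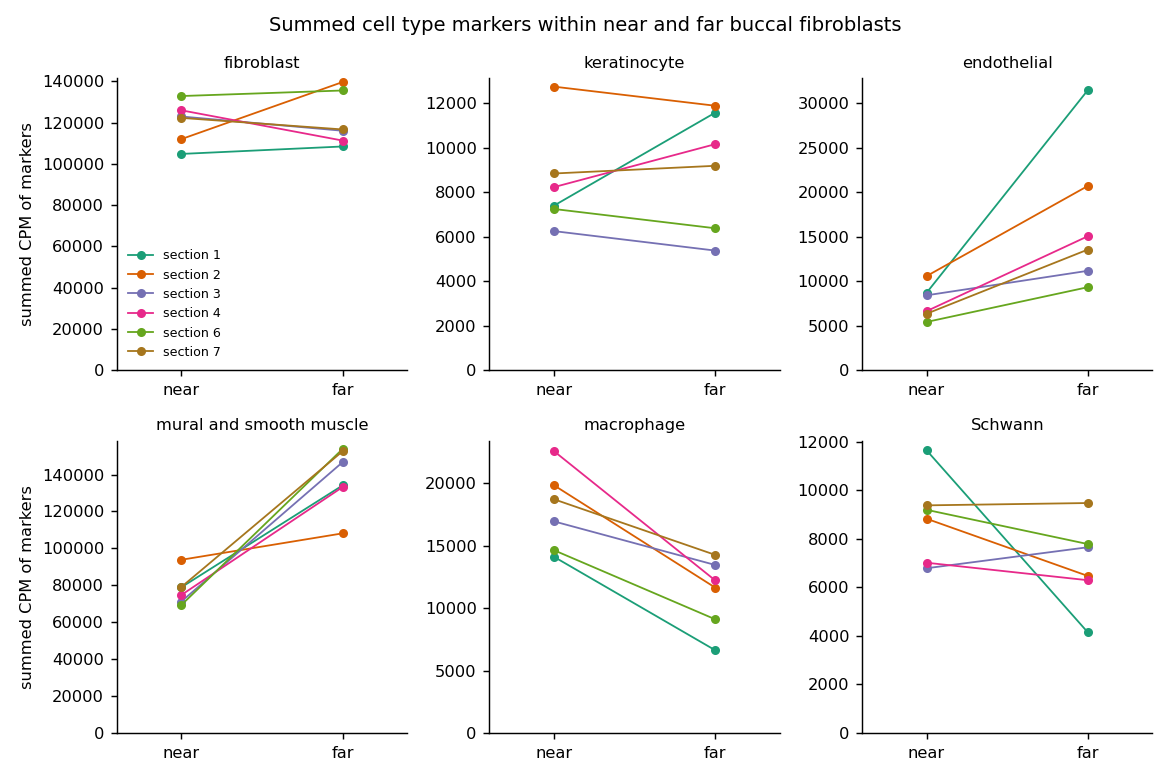
Each panel plots the summed CPM of a list of cell type markers, without the genes of the selection rule, in near and far fibroblasts of each buccal section (vertical axis from 0). Endothelial and mural sums rise from near to far in all 6 sections and macrophage sums fall in all 6, while fibroblast and keratinocyte sums are higher near in 3 of 6. Des makes up most of the mural sum outside the near zone of section 1.

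By distance, Crabp1, Ptn, Wnt5a and Postn each fell by more CPM between the first and the second bin than over any later step up to 200 µm. The same held for Igf1, Bmp4, Vim and Col1a1. The bins were of unequal width, and by fold Ptn fell more over the second step than over the first. Mean Crabp1 was 6026, 1651, 453 and 188 CPM at 0 to 25, 25 to 50, 50 to 100 and 100 to 200 µm from the nearest anchor cell, over 6 sections. Ptn was at 10954, 4195, 1160.4 and 782 CPM over the same bins, Wnt5a at 6416, 1925, 1053 and 873 CPM and Postn at 12288, 4531, 2035 and 1072 CPM. Each of these was highest in the bin next to the epithelium, in 6 of 6 sections for all 4. Mmp3 declined more evenly, at 5924, 4309, 3135 and 1511 CPM, as did Vim, at 76008, 65814, 57256 and 47836 CPM. Igf1 and Bmp4 were flat beyond 50 µm, at 9269, 5654, 3147 and 3029 CPM and 7172, 4472, 3466 and 3378 CPM over the 4 bins. Des climbed over the same bins, at 40076, 85174, 119065 and 133112 CPM, and so did Rtn4, at 10613, 20147, 28299 and 37143 CPM, and Cxcl12, at 7058, 9619, 13142 and 16199 CPM. Of the fibroblast genes of the rule, Pdgfra stayed between 16691 and 18579 CPM, Col1a1 was at 34433, 27185, 22937 and 20481 CPM over the 4 bins, and Lum at 13833, 14918, 16006 and 16320.4 CPM. Beyond 200 µm only 3 sections had 10 or more fibroblasts, and the profile was not read there. The near zone restricted to 25 to 50 µm gave 27 calls, against 65, with 59 of the 65 genes still tested and 23 of them called, Crabp1, Ptn, Postn, Wnt5a, Thbs1 and Mmp3 among them.

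**Figure D4:**
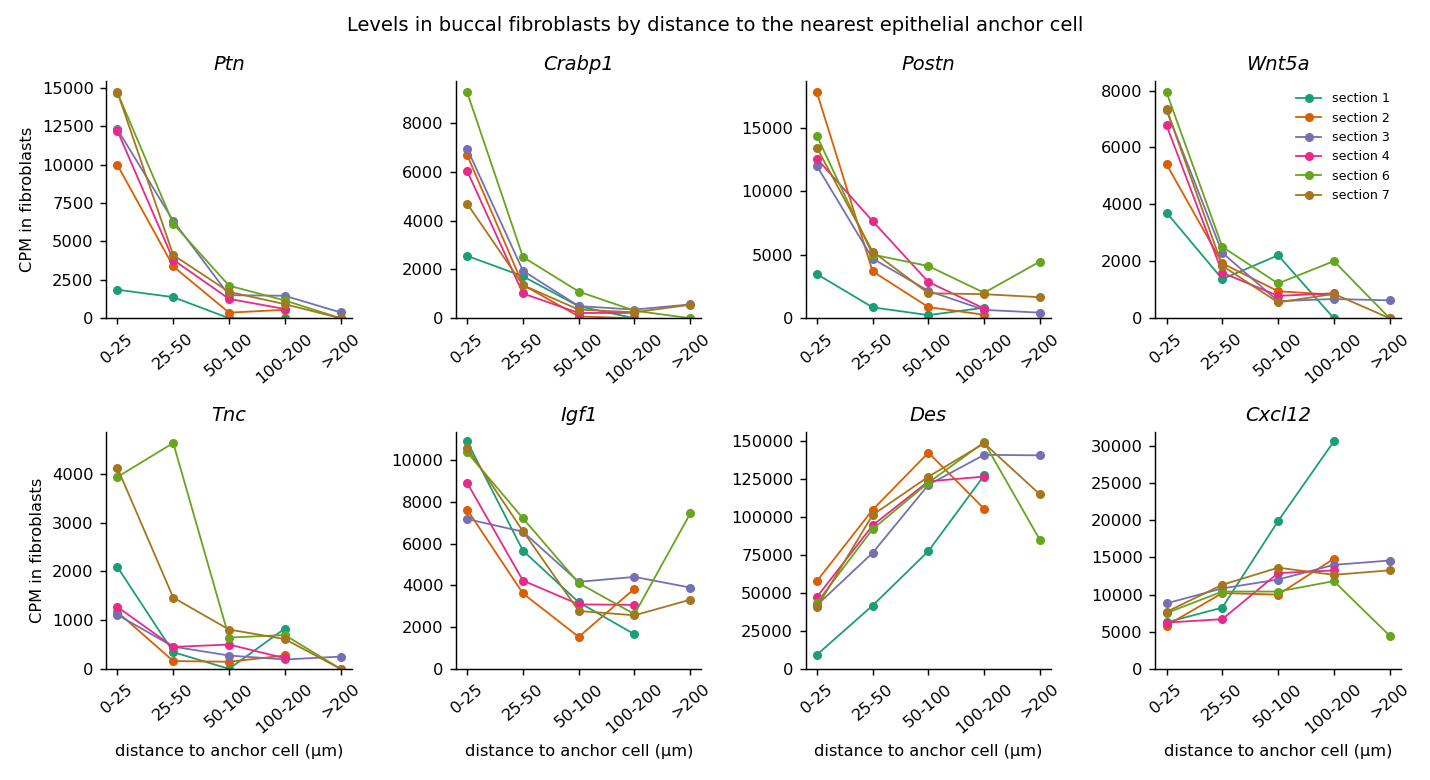
Each panel plots 1 gene in CPM in buccal fibroblasts (vertical, from 0) against distance to the nearest anchor cell in 5 bins, in µm, with a line for each section and only bins of at least 10 fibroblasts. Ptn, Crabp1, Postn and Wnt5a are highest at 0 to 25 µm in all 6 sections, Des is lowest there in all 6, and so is Cxcl12 up to 200 µm, while the bin over 200 µm holds 3 sections, 1 of them with 12 fibroblasts and Cxcl12 at 4471 CPM.

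The outlines drawn by the instrument gave measures of form for each zone. The median area of near fibroblasts was 121 to 157 µm2 and that of far fibroblasts 185 to 258 µm2, smaller near in 6 of 6 sections, with a mean near-minus-far difference of -88.0 ± 17.5 µm2 (SD, n = 6). A two-sided exact permutation test that flips the sign of each section's difference gave p = 0.03125, which 6 sections cannot go below, and an adjusted p of 0.078 over 5 measures, or 0.125 over the 4 without the share of fibroblasts. Fibroblasts made up 6.59% ± 2.74 of cells near and 11.7% ± 7.72 far. The near share was lowered by construction, since the near zone was drawn around epithelial cells and cells with Krt5 or Itgb4 were left out, so no test of it is read. The share of fibroblast transcripts lying over the nucleus was 37.2% ± 2.33 near and 34.1% ± 2.85 far, higher near in 5 of 6 (exact p = 0.0625, adjusted 0.125 over the 4). Median nucleus area (19.0 against 22.1 µm2) and median transcripts per fibroblast (86.3 against 97.2) were higher near in 2 of 6 sections each (exact p = 0.125 for both). None of the 4 measures passed after adjustment. With anchor cells required to hold Krt5 as well, all 4 had an adjusted p of 0.03125, with a near-minus-far difference in area of -90.4 µm2.

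Near and far fibroblasts of unwounded skin were then compared in the same way, to ask which of these differences also occurred in the other tissue. The anchor rule does not separate surface epidermis from hair follicles, and the anchor cells of skin were not profiled. Near skin fibroblasts may therefore lie beside follicles, which the cheek lacks. The paper gives Dkk2, named below, as a marker of dermal papilla cells. The 7 skin sections held 40761 near or far fibroblasts, and 62 of 310 genes tested were called (20%), 27 higher near (8.71%) and 35 lower near (11.3%). Of the 30 genes higher near in the cheek, 3 were called higher near in skin as well: Crabp1 (log2 2.49, SE 0.57, adjusted p = 0.012), Wnt5a (1.28, SE 0.25, adjusted p = 0.0061) and Dkk2 (1.30, SE 0.27, adjusted p = 0.008). Igf1 (-0.60, SE 0.16, adjusted p = 0.024) and Igfbp6 (-1.33, SE 0.18, adjusted p = 7.1e-04) were called lower near in skin. Of the 35 lower near in the cheek, 15 were lower near in skin, among them Des (-3.56, SE 0.35, adjusted p = 7.5e-05), Gpx3 (-3.00, SE 0.30, adjusted p = 7.5e-05), Rtn4 (-1.40, SE 0.22, adjusted p = 0.0017) and Cxcl12 (-0.82, SE 0.22, adjusted p = 0.021), and none was higher near.

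The difference between the tissues was itself tested, as the interaction of zone and tissue over 13 sections. It passed for 53 of 284 genes (18.7%), 48 with a higher near-to-far ratio in the cheek (16.9%) and 5 with a lower one (1.76%). The median over the 284 genes was 0.32 on the log2 scale, 0.36 over the 160 tested in the cheek and 0.02 with RLE size factors, which gave 31 higher and 8 lower, so each value below is to be read against that shift. DESeq2 gave 36 and 15. Of the 30 genes higher near in the cheek 17 differed from skin: Postn by 3.19, Ptn by 2.92, Thbs1 by 2.33, Tnc by 2.21, Igfbp6 by 2.17, Wnt16 by 2.16, Cd68 by 2.02, Ccl8 by 1.91, Igf1 by 1.89, Mmp3 by 1.88, Igf2 by 1.73, Ctss by 1.56, Hpgd by 1.47, Ccn1 by 1.46, Bmp2 by 1.38, Id3 by 1.17 and Mmp2 by 0.94. With RLE size factors Bmp2, Ctss, Hpgd, Id3, Igf2 and Mmp2 did not pass. The 30 genes were picked for a high ratio in the cheek, and the interaction reuses the same cheek counts. A positive difference was therefore favoured in advance, and the count of 17 is descriptive. Crabp1, Wnt5a, Dkk2, Cdh11 and Bmp4 did not pass the interaction (1.45, adjusted p = 0.24, 1.08, adjusted p = 0.074, 0.33, adjusted p = 0.74, 1.43, adjusted p = 0.11 and 0.27, adjusted p = 0.65), which does not show that they were alike. Of the 35 genes lower near in the cheek 6 differed. Flt1 and Adgrl4 were lower near in the cheek than in skin (-1.46 and -1.13), but without fibroblasts holding Des both changed sign, Flt1 to 8.72 (adjusted p = 0.022) and Adgrl4 to 1.76 (adjusted p = 0.17). The cheek then held 63 near and 0 far transcripts of Flt1 and 48 near and 2 far of Adgrl4, so these fitted values give no fold. With all fibroblasts, Des, Gpx3, Anxa3, a phospholipid-binding annexin, and Abca8a had the larger fall in skin (2.55, 1.84, 1.50 and 1.29). Tissue and slide cannot be told apart here, the skin sections mixed Control and PITX1+ animals, and without section as a block 4 genes passed.

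**Figure D5:**
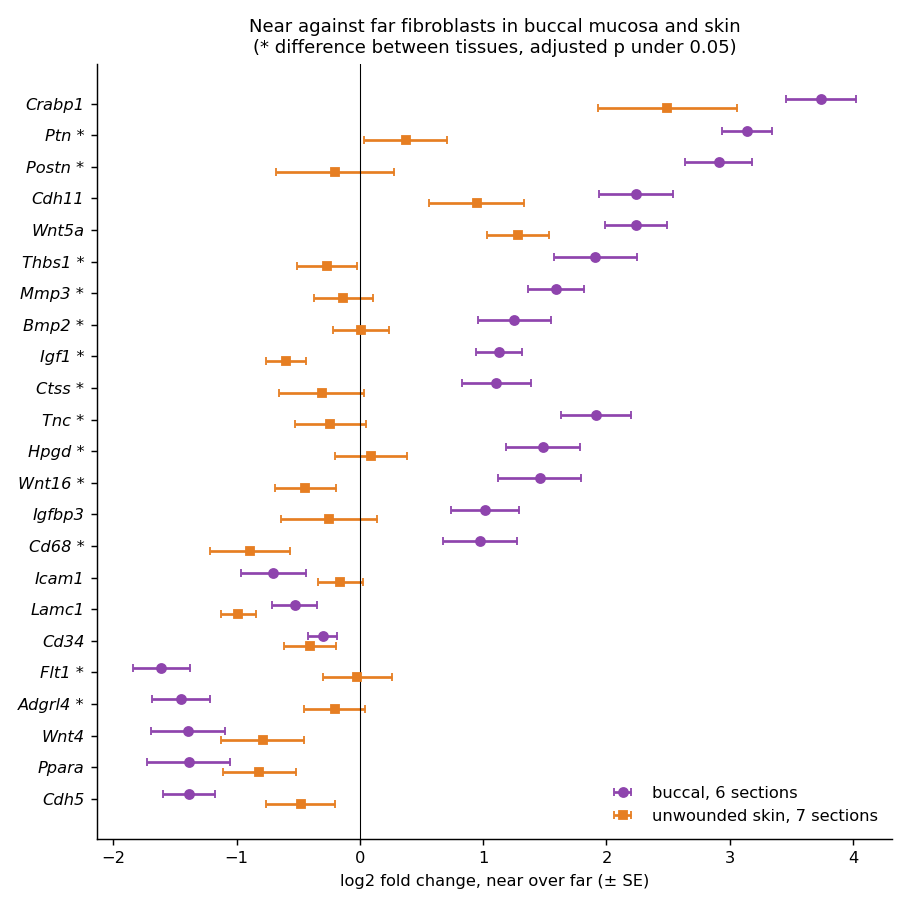
Log2 fold changes of near over far fibroblasts (horizontal) with standard errors derived from the F statistic are plotted for the 23 named genes (rows) in buccal mucosa (circles, 6 sections) and unwounded skin (squares, 7 sections). A star marks a difference between tissues at an adjusted p under 0.05. Ptn, Postn and Tnc lie to the right in the cheek and close to 0 in skin, and Crabp1 and Wnt5a lie to the right in both.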

How the data were processed

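Xenium in situ expression was measured on 4 slides, of which the buccal mucosa slide and the 2 unwounded skin slides were used. The authors deposited instrument output: per the file headers, a cells table with counts of transcripts per cell, not normalized, and cell positions and areas in µm and µm2, and a transcripts table with a quality score, a position and the assigned cell of each transcript. The coordinates of cell and nucleus outlines were not used, only the deposited areas and whether a transcript overlapped the nucleus. The version of the instrument's software and the segmentation settings are not given in the sources used here. Segmentation can assign transcripts of a neighbouring cell to a fibroblast.

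Per cell, transcripts whose quality score reached 20 were counted, and the sums equalled the deposited counts in all cells of the 3 slides. Sections were cells chained within 100 µm, with at least 2000 cells. Sections entered with at least 100 near fibroblasts, and in skin also at least 50 far. Counts were summed per section and zone, and zones were compared by the quasi-likelihood test of edgeR 4.0.16 under R 4.3.3 (glmQLFit, glmQLFTest) after TMM scaling and filterByExpr (section as a block, Benjamini-Hochberg adjustment over all genes tested, threshold 0.05). The 6 genes of the selection rule stayed in the totals and were not tested. The SE of a log2 difference was derived as its absolute value divided by the square root of the F statistic of the test. Cell measures were compared with exact permutation tests, two-sided, that flip the sign of section differences (scipy 1.17.1 and pandas 2.3.3 under Python 3.11.15). Figures were drawn with matplotlib 3.10.9. Alternatives covered DESeq2 1.42.0, other scalings and filters, other distances and thresholds, nuclear transcripts only, the fit without the block, fibroblasts without markers of other cells, and leaving out each section. Scripts were tested on simulated data. No doublets were removed.

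Genes were named by rule: called genes were divided by whether they exceeded the other cells of their higher zone in every section, and the 10 largest changes per direction of those that also moved 1 way in every section, with the 5 largest of the rest, were named, together with the rule genes and called members of the gene lists. Des, Rtn4 and Vim and the genes below the filter were named after their values were seen. The cells, the lists and the tests were chosen with earlier results of these data known. Counts and a median of the retinoid list are not reported here.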

Additional observations from a re-analysis of the deposited data

Results flagged for a closer look

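Single sections stood apart in 18 of 152 groups of 6 section values checked, where chance would give about 1 in 20 (71 genes called or used by the rule and 5 cell measures, each in both zones). Section 1, whose far zone held 12 fibroblasts, accounted for most. Its far zone was highest for Cxcl12 (30629 CPM), Cebpb (9106 CPM), Cebpg (7450.3 CPM), Flt1 (6623 CPM), Abcc9 (5795 CPM), Itgb6 (5795 CPM) and Pdgfb (2483 CPM), and lowest for Bmpr2 (2483 CPM) and Bmp4 (828 CPM). Its near zone was lowest for Postn (1974 CPM) and highest for Anxa3 (4837 CPM) and Sorl1 (1777 CPM). The near zone of section 2 was highest for Cebpg (3338 CPM), Adgrl4 (1921 CPM) and Prxl2a (686 CPM). The far zone of section 6 was highest for Cd34 (32225 CPM) and Drp2 (661 CPM), and in section 4 the share of far fibroblast transcripts over the nucleus was lowest, at 28.8%.

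For 23 of the 65 genes called in the cheek, the near-to-far difference differed from that in unwounded skin by the test of the interaction of zone and tissue. The 65 were picked from the same cheek counts that enter this test, so the count of 23 is descriptive. On the log2 scale, the cheek exceeded skin for Postn (3.19), Ptn (2.92), Des (2.55), Thbs1 (2.33), Tnc (2.21), Igfbp6 (2.17), Wnt16 (2.16), Cd68 (2.02), Ccl8 (1.91), Igf1 (1.89), Mmp3 (1.88), Gpx3 (1.84), Igf2 (1.73), Ctss (1.56), Anxa3 (1.50), Hpgd (1.47), Ccn1 (1.46), Bmp2 (1.38), Abca8a (1.29), Id3 (1.17) and Mmp2 (0.94). It fell below skin for Flt1 (-1.46) and Adgrl4 (-1.13). For Des, Gpx3, Anxa3 and Abca8a the positive value reflects a larger fall near the epithelium in skin.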

How the results depend on the processing

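The count of genes called in buccal fibroblasts, 65, became 39 with transcripts over the nucleus only (110 tested), 27 with the near zone at 25 to 50 µm, 14 with the far zone beyond 200 µm (3 sections) and 5 without fibroblasts holding Des (4 sections). Without the filter on low counts it was 91, 58 higher and 33 lower. Leaving out 1 section at a time gave 49 to 82. Without section as a block it was 53, against 14 in skin and 4 for the difference between tissues. The skin count, 62, became 112 with DESeq2, 35 with nuclear transcripts, 33 at 25 to 50 µm, 37 beyond 200 µm, 37 without fibroblasts holding markers of other cell types, and 44 to 72 with 1 section left out. The count for the difference between tissues, 53, became 28 with nuclear transcripts, 24 at 25 to 50 µm, 9 beyond 200 µm, 18 with at least 5 selecting transcripts, 30 without fibroblasts holding keratinocyte markers and 30 without those holding endothelial markers, 26 without those holding macrophage markers, 33 with at least 100 far fibroblasts per buccal section, and 32 to 52 with 1 section left out. Of single genes, Crabp1, Ptn, Postn and Wnt5a kept their call under all 28 alternatives fitted. With Krt5 required of anchor cells, 57 of the 65 genes kept their call, 7 lost it and 1 changed sign. Log2 differences changed sign beyond 200 µm for Igfbp3 (-0.10), Ccl8 (-0.051) and Cd74 (-0.14), with Krt5 required of anchor cells for Drp2 (-0.28), and without fibroblasts holding Des for Bmpr1a (0.16), Bmpr2 (0.29), Itgb5 (0.39), Tsc22d1 (1.00), Cd74 (-0.38) and Igfbp4 (-0.14). The difference from skin changed sign for Adgrl4 beyond 200 µm (0.22) and, without fibroblasts holding Des, for Adgrl4 (1.76) and Flt1 (8.72, adjusted p = 0.022, with 0 far transcripts in the cheek). With Krt5 required of anchor cells, near minus far was -90.4 µm2 for cell area, -3.00 µm2 for nucleus area, -11.8 for transcripts per fibroblast and 4.00 percentage points for transcripts over the nucleus, each with an adjusted p of 0.03125. The share of fibroblasts, which the zones lower near the epithelium by construction, then differed by -7.89 percentage points. Transcripts per fibroblast changed sign beyond 200 µm (9.50) and without fibroblasts holding Des (11.6), as did the share of fibroblasts in the latter (0.970). Fewer genes were tested with nuclear transcripts and without Des. Of the 65 genes, 52 were still tested and 36 called with nuclear transcripts, and 39 and 5 without Des. The cause of these and the other changes was not tested. Buccal zones without fibroblasts holding any marker of another cell type could not be fitted, since under 10 far fibroblasts per section were left. The alternatives that left out fibroblasts with Des, endothelial or macrophage transcripts, or sections with few far fibroblasts, were chosen after seeing the data. Depth limits the far zone most, at 1208 to 78034 transcripts per section.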
